A study of Mus musculus with 21 samples.

Results

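In mouse mesenchymal cells, 9 genes were described across wild-type histone H2B and 6 H2B mutants: Glrb, Gabra3, Slc1a3, Asic1, Hvcn1, Celf2, Brinp3, Scrn1 and Sorbs2. Most are better known from neurons, glia and other excitable cells, but Hvcn1 is best known from phagocytes and microglia. The genes are 9 of the 24091 in the table, matched by symbol. They were picked because their levels differed strongly between at least 1 mutant and wild type (WT). Every difference of a mutant from WT in these 9 genes is therefore a description, given with no test. Glrb, Slc1a3 and Celf2 were higher in all 6 mutants, Asic1 was lower in all 6, and Sorbs2 was higher in 5 and lower in E76K. The other 4 were raised in few mutants: Gabra3 in E76K, E113K and E113Q, Brinp3 in E76K, Hvcn1 in E113K, and Scrn1 in E113K and E113Q.

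Fast inhibition in the nervous system runs through chloride channels built of several subunits, the glycine receptors and the GABA-A receptors. Glrb encodes the glycine receptor beta subunit, which binds the scaffold gephyrin, and Gabra3 encodes an alpha subunit of the GABA-A receptor. Slc1a3 encodes a glutamate transporter of astrocytes, and Asic1 and Hvcn1 encode proton-gated or proton-conducting channels. None of these genes is restricted to neural tissue, and the REST repressor with its CoREST partners is known to hold many neuronal genes silent in other cells.

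The cells were C3H/10T1/2, a mouse embryo line of mesenchymal progenitors. The groups were H2B E71K, E71Q, E76K, E76Q, E113K and E113Q, with glutamate E71, E76 or E113 changed to lysine (K) or glutamine (Q), and H2B WT, with 3 libraries in each of the 7 groups. RNA was sequenced, and each gene's level is given in TPM, a transcript abundance normalized for length and scaled to the same sum in each library. Which promoter drove the H2B, whether the endogenous genes were intact, and how many lines or clones stood behind each genotype are not given in the sources used here. A difference between lines and an effect of the substitution cannot be told apart. The submitters call the 3 libraries independent biological replicates without saying whether cultures were separate, and the p-values measure only how these samples scatter, which may be technical in origin.

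TPM summed to 999897 to 999931 per library. The sequencing depth is unknown, because these values hold no read numbers. Log2(TPM + 1) correlated across genes at 0.935 to 0.98 within groups and 0.864 to 0.945 between groups. Along the largest axis of differences within groups, which held 24% of that variance, 4 libraries lay apart from their mates: E71K replicate 3, E71Q replicate 1, E76K replicate 3 and E113Q replicate 3. Mir6236, an annotated microRNA locus, took 2.19% to 30.6% of TPM. The median tested gene differed from WT by 0.16 on the log2 scale in E76K and by 0.13 in E113K, and changes there are read against that shift. Where a result rests on a library that lay apart, it is given with and without it.

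The neural label was set against marker lists. Of 22 neuron markers, 15 were below 1 TPM in every library, among them Rbfox3, Snap25, Dcx, Gad1 and Slc17a7. Of 11 neural progenitor markers, 10 were below 1 TPM in every library and 4 (Sox2, Neurog1, Neurog2 and Olig2) were at 0 in all of them. The astrocyte markers Aqp4, Aldh1l1, Slc1a2, Aldoc and Gjb6 and the glial markers Mog, Mag, Sox10, Olig1 and Foxd3 were also below 1 TPM throughout. All 12 mesenchymal markers passed the filter, and their summed TPM ran from 12467.7 to 20291.8 in mutant libraries and from 15835.2 to 16139.8 in WT libraries. That sum is carried by S100a4, Vim, Col1a2 and Col1a1, and single mesenchymal markers moved. Thy1, a surface protein of fibroblasts and also of neurons, fell by 5.96, 5.12 and 5.51 on the log2 scale in E71K, E71Q and E76Q, to means below 1 TPM, and rose by 0.67 in E76K. Twist2, a mesenchymal transcription factor, fell in E71K and, by 1.63, 1.45 and 1.77 on the log2 scale, in E71Q, E76Q and E113Q. Some glial markers were expressed. Cnp, a myelin enzyme, rose by 1.89, 2.84, 1.23 and 1.42 in E71K, E71Q, E113K and E113Q and fell by 1.44 in E76K. Erbb3, a neuregulin receptor of Schwann cells, rose by 3.39, 2.04 and 0.98 in E71K, E71Q and E76Q and fell by 0.65 in E113K. Gfap, an astrocyte filament, rose by 1.82 in E71Q and 1.88 in E76Q, and averaged 3.66 TPM in E76Q, against 0.263 TPM in WT. S100b, a calcium-binding protein of glia and other cells, rose by 1.94 in E71Q and fell by 2.10 in E76K and 1.53 in E113Q. Gja1, a gap junction protein of many cells, rose by 0.99, 1.02 and 0.87 in E71K, E76K and E113K and fell by 0.67 in E76Q. Neural is a label here for the 9 genes as a group. It does not hold for each of them, since Hvcn1 is best known from phagocytes and microglia.

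Among the neuron markers that were expressed, directions were mixed. Map2, which encodes a microtubule-binding protein of dendrites, rose in all 6 mutants, to means of 20.4, 33.8, 20.2, 4.92, 26.6 and 23.0 TPM in E71K, E71Q, E76K, E76Q, E113K and E113Q, against 2.73 ± 0.154 TPM in WT (SD, n = 3). On the log2 scale the rises were 2.52, 3.19, 2.49, 0.66, 2.89 and 2.67, and the weakest, in E76Q, had a limma adjusted p of 0.00658. Syn1, which encodes a synaptic vesicle protein, fell in 5 mutants, to 1.5, 1.05, 0.349, 0.149 and 0.616 TPM in E71K, E71Q, E76K, E113K and E113Q, against 5.33 ± 0.453 TPM in WT. In E76Q Syn1 was at 3.99 TPM (adjusted p = 0.051, or 0.0395 with median-ratio rescaling). Tubb3, a neuronal beta tubulin, fell in E76K, E76Q, E113K and E113Q by 1.21, 2.35, 2.50 and 0.95 on the log2 scale. In E71Q its difference was −0.73 (adjusted p = 0.0804), or −1.22 (adjusted p = 3.76e-05) without the libraries that lay apart. The summed TPM of the 22 neuron markers ran from 29.9 to 41.8 in E71K, 40.5 to 48.3 in E71Q, 28.1 to 32.9 in E76K, 11.8 to 12.1 in E76Q, 38.9 to 46.0 in E113K and 25.7 to 36.0 in E113Q, against 22.6 to 24.8 in WT. Eno2, a neuronal enolase, rose by 1.26 in E113K and fell in the other 5 mutants. Gap43, the remaining neuron marker that passed the filter, rose by 1.19, 0.55 and 1.44 in E71K, E71Q and E76K. It did not pass in E76Q, E113K or E113Q, and its mean in WT was 0.422 TPM. Nes, which encodes the progenitor filament nestin, fell in 5 mutants, by 3.53 on the log2 scale in E113K, against a mean of 18.9 TPM in WT. Among other cell types, the summed TPM of 8 epithelial markers was 81.5 to 488.5 in E71K and 41.5 to 364.8 in E71Q, and in the other mutants 0.829 to 9.94, against 11.5 to 14.5 in WT. The summed TPM of 10 muscle markers was 31.9 to 173.2 in E71K, 23.2 to 72.0 in E71Q, 10.9 to 26.6 in E76K, 12.6 to 27.2 in E76Q, 3.03 to 4.43 in E113K and 6.0 to 13.3 in E113Q, against 25.7 to 31.4 in WT. No muscle marker passed as higher in E71K, where Tnnt2, a troponin of heart muscle, carried the sum (adjusted p = 0.0629). The part of the marker lists in the values of the 9 genes was not tested.

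Promoter windows of 4 of the genes are shown because the genes fall in pairs by level: Glrb and Slc1a3 were higher in all 6 mutants, and Gabra3 and Brinp3 had their highest level in E76K. Each window holds 250 bases before and 50 after the annotated start (RefSeq, GRCm38.p6), read 5′ to 3′ on the gene's strand: Glrb at chr3:80913611-80913910 on the minus strand, Slc1a3 at chr15:8710758-8711057 on the minus strand, Gabra3 at chrX:72656870-72657169 on the minus strand, and Brinp3 at chr1:146495379-146495678 on the plus strand. Capitals mark matches on either strand to 1 of 3 motifs. The GC box is GGGCGG. The TATA box is TATAAA. The name of the CCAAT box is its sequence.
Glrb: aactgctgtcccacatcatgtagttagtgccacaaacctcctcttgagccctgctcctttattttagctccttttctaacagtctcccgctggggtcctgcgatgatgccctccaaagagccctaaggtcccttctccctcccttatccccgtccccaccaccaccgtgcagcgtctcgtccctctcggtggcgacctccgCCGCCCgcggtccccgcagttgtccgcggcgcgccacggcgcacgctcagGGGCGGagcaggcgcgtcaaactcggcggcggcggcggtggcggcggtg
Slc1a3: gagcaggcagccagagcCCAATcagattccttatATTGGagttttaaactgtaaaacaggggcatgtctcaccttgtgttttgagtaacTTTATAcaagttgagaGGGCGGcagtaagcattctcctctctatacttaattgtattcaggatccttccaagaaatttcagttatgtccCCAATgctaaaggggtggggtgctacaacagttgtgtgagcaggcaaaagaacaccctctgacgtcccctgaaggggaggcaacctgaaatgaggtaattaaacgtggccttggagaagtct
Gabra3: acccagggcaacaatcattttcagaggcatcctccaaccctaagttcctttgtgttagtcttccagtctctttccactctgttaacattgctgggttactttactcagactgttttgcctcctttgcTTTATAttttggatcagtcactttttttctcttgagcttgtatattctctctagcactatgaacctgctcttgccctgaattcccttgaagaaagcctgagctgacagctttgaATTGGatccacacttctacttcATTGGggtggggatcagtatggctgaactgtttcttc
Brinp3: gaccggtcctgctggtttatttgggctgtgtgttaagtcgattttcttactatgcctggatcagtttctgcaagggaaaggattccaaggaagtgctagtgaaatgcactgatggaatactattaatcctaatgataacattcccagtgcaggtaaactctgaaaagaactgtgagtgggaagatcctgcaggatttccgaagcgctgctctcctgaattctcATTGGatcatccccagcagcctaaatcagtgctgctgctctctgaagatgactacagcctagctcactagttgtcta
Glrb and Slc1a3 differed in base composition, with a GC content of 65.7% and 45.3%. Gabra3 and Brinp3 both had few CpG and a GC content of 43.0% and 45.3%, beside a median of 52.7% over all windows. Slc1a3 shared this composition, so it was not particular to Gabra3 and Brinp3. A further Brinp3 window, not shown, had 11 CpG and a GC content of 52.3%. The Glrb window had 30 CpG, an observed over expected CpG ratio of 0.96 and 2 GC boxes. The Slc1a3 window had 3 CpG, a ratio of 0.2, 1 GC box, 1 TATA box and 3 CCAAT boxes. Gabra3 had 0 CpG with 1 TATA box and 2 CCAAT boxes, and Brinp3 had 4 CpG, a ratio of 0.26 and 1 CCAAT box. Over 32817 promoter windows of the same length the median ratio was 0.38, and 35.6% held a GC box, 13.6% a TATA box and 37.4% a CCAAT box. The left part of the REST element, TTCAGCACC (in 0.372% of all windows), and the E box, CACGTG (in 7.15%), were not matched in the windows of the 8 genes that have one. Gene-level TPM does not say which of several annotated starts was used, and Celf2 has 5 windows, Brinp3 and Sorbs2 have 3 each and Gabra3 has 2.

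**Figure D1:**
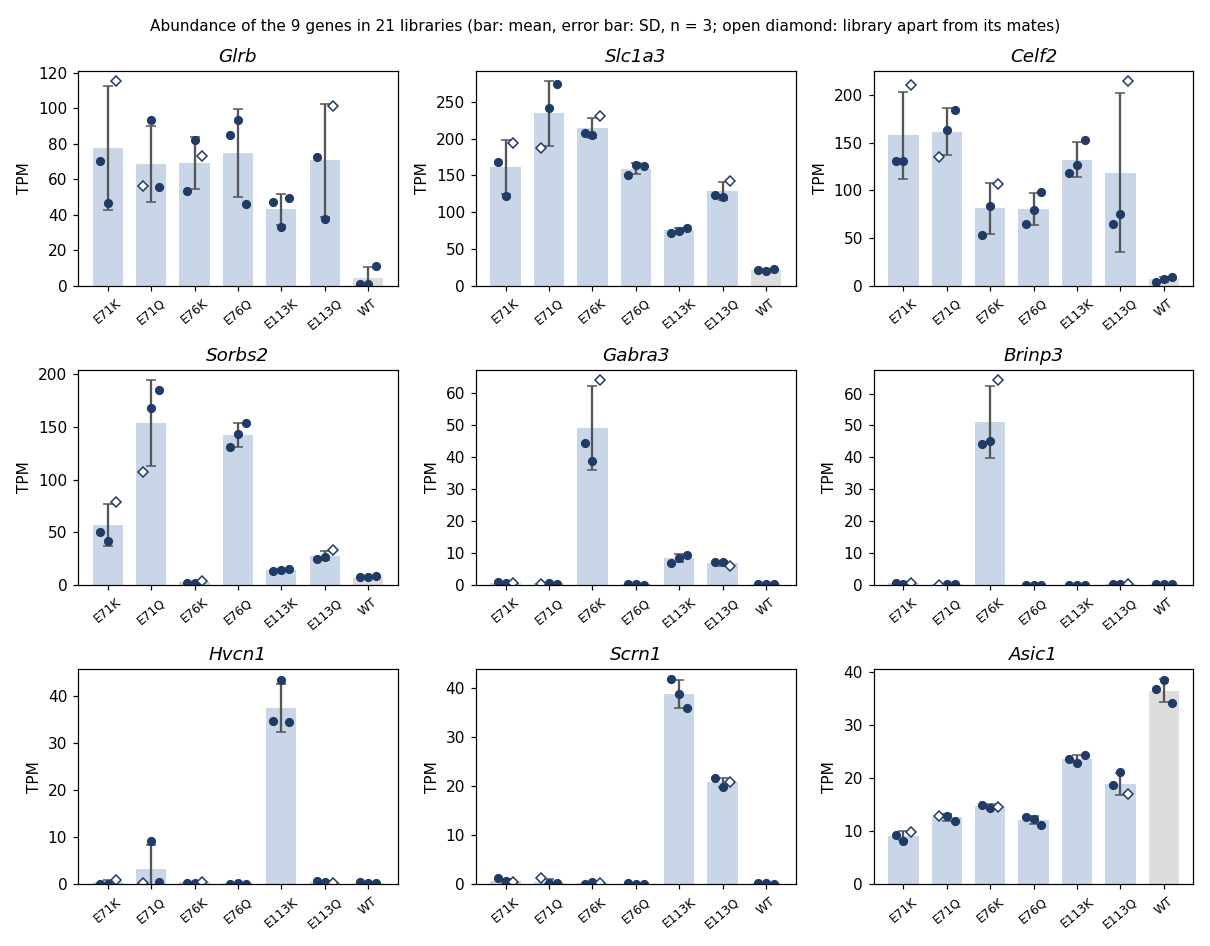
TPM of each of the 9 genes for the 6 H2B mutants and then WT, with bars at the group mean, error bars of 1 SD (n = 3), 1 point per library and open diamonds for the 4 libraries that lay apart. Glrb, Slc1a3 and Celf2 lay above every WT library in all 18 mutant libraries and Asic1 lay below, while Brinp3 stood apart in E76K and Hvcn1 in E113K.

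Of the receptor subunits, Glrb (chromosome 3, 80843598 to 80913660, minus strand) had 70.3, 46.6 and 115.2 TPM in E71K, 56.3, 93.2 and 55.6 in E71Q, and 53.1, 81.8 and 72.9 in E76K. It had 84.8, 93.1 and 46.3 TPM in E76Q, 46.9, 33.0 and 49.2 in E113K, and 72.7, 37.7 and 101.3 in E113Q, against 0.8, 1.06 and 11.2 in WT. All 18 mutant libraries were above every WT library, and WT replicate 3 stood above its mates. The same separation held for Slc1a3 and Celf2, so 3 of the 9 genes were above WT throughout, where 5.86% of the 12192 tested genes were. In bulk RNA, fewer cells of a type and less RNA per cell cannot be told apart. Mean log2(TPM + 1) of Glrb exceeded WT by 4.36, 4.24, 4.28, 4.35, 3.61 and 4.22 in E71K, E71Q, E76K, E76Q, E113K and E113Q. Without WT replicate 3 the same differences were 5.25, 5.13, 5.17, 5.24, 4.49 and 5.11. E113K had the lowest mutant mean, 43.0 ± 8.74 TPM (SD, n = 3), and no E113K library reached the lowest E71Q library.

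No pair of mutants differed in Glrb at an adjusted p below 0.05. E113K minus E76K was −0.67 ± 0.56 (SE) on the log2 scale with a limma adjusted p of 0.386, and E113K minus E71K was −0.76 ± 0.56 with 0.279. Lysine minus glutamine was 0.12 at E71, −0.07 at E76 and −0.61 at E113 (adjusted p = 0.908, 0.952 and 0.446). At an SE of 0.56 these differences are within the spread between libraries, which does not show that the mutants are alike.

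Gabra3 (chromosome X, 72432676 to 72656919, minus strand) had 44.3, 38.8 and 63.9 TPM in E76K, 6.94, 8.55 and 9.44 in E113K and 7.24, 7.06 and 5.91 in E113Q. It was at 0.864, 0.506 and 0.47 TPM in E71K, 0.255, 0.723 and 0.424 in E71Q and 0.231, 0.266 and 0.0589 in E76Q, against 0.285, 0.193 and 0.142 in WT. The log2(TPM + 1) scale understates folds of genes that are low in WT, as Gabra3 is. The 3 groups with raised levels did not overlap the remaining mutants or WT, and E76Q overlapped WT. E76K thus held Gabra3 at 49.0 ± 13.2 TPM, while its glutamine counterpart overlapped WT. E113K minus E76K was −2.40 ± 0.18 on the log2 scale (limma adjusted p = 1.57e-08), a difference between mutants that were both above WT. E113K minus E113Q was 0.26 ± 0.18 (adjusted p = 0.296). Gabra3 passed the filter through the 3 raised groups, since every other group mean was at most 0.613 TPM. These p-values are therefore not independent of how the gene was picked.

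**Figure D2:**
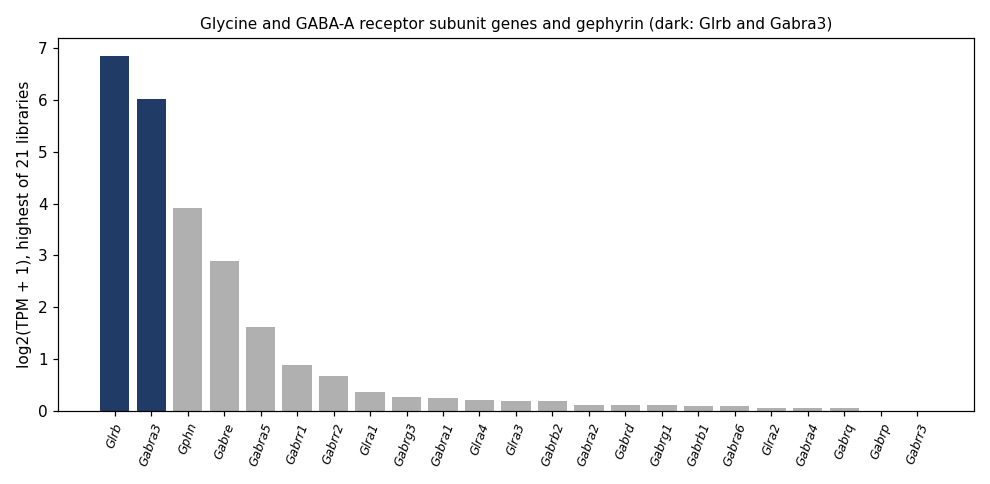
Highest log2(TPM + 1) of each gene in any of the 21 libraries, for glycine and GABA-A receptor subunits and gephyrin (Gphn), with Glrb and Gabra3 dark and the other genes grey. Glrb and Gabra3 are tallest, and Glra1 to Glra4, Gabrb1, Gabrb2, Gabrg1 and Gabrg3 stay near 0, at no more than 0.281 TPM.

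A glycine receptor needs alpha subunits, and a GABA-A receptor usually holds beta subunits with a gamma subunit. Glra1, Glra2, Glra3 and Glra4 reached at most 0.281, 0.0393, 0.141 and 0.148 TPM in any library. Gabrb1 and Gabrb2 reached at most 0.0623 and 0.131 TPM, and Gabrg1 and Gabrg3 at most 0.0699 and 0.206 TPM. RNA of Glrb and Gabra3 was thus high while RNA of these partner subunits was at or near 0. Of the 25 genes of the receptor list, 4 passed the filter of a mean of 1 TPM over the 21 libraries: Glrb, Gabra3, Gabre and Gphn. Gabra5, another alpha subunit, reached 2.08 TPM and averaged 1.16 ± 0.801 TPM in E76K.

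Gphn, which encodes gephyrin, the scaffold that anchors these receptors and also makes molybdenum cofactor in non-neural cells, rose in all 6 mutants. Its mean was 12.2 ± 2.44 TPM in E71K, 10.5 ± 2.67 in E71Q, 8.94 ± 0.572 in E76K, 6.75 ± 0.602 in E76Q, 8.02 ± 0.631 in E113K and 11.7 ± 1.03 in E113Q, against 4.21 ± 0.237 in WT (SD, n = 3 each). The log2 differences were 1.33, 1.12, 0.93, 0.57, 0.79 and 1.28, and the weakest, in E76Q, had a limma adjusted p of 0.00698. Gabre, the epsilon subunit of the GABA-A receptor, rose by 1.12 in E113Q (adjusted p = 0.0134) and fell by 0.95 in E71Q (adjusted p = 0.0236), with means of 4.32 and 0.117 TPM, against 1.18 TPM in WT.

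Slc1a3 (chromosome 15, 8634124 to 8710807, minus strand) takes up glutamate, in the brain mainly into astrocytes and radial glia. It had 167.7, 122.4 and 194.4 TPM in E71K, 187.6, 241.6 and 274.5 in E71Q and 208.3, 205.4 and 230.3 in E76K. It had 150.0, 164.4 and 163.1 TPM in E76Q, 72.0, 74.7 and 78.8 in E113K and 122.9, 120.8 and 142.5 in E113Q, against 21.2, 19.5 and 23.2 in WT. By mean the order was E71Q, E76K, E71K, E76Q, E113Q, E113K and WT. E71K, which ranged from 122.4 to 194.4 TPM, overlapped E71Q, E76Q and E113Q, and E113K and WT each overlapped no other group. The differences from WT were 2.84, 3.39, 3.28, 2.85, 1.77 and 2.54 on the log2 scale in E71K, E71Q, E76K, E76Q, E113K and E113Q.

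In Slc1a3 lysine lay below glutamine at E71 and at E113, and above it at E76. Lysine minus glutamine was −0.54 ± 0.15 at E71 (limma adjusted p = 0.0145), 0.43 at E76 (adjusted p = 0.0381) and −0.77 at E113 (adjusted p = 0.00119). Among lysine mutants E113K minus E71K was −1.07 (adjusted p = 2.12e-05), E113K minus E76K was −1.50 (adjusted p = 7.29e-07) and E76K minus E71K was 0.43 (adjusted p = 0.0389). Among glutamine mutants E113Q minus E71Q was −0.85 (adjusted p = 0.00046) and E76Q minus E71Q was −0.54 (adjusted p = 0.0162). E113Q minus E76Q was −0.31 (adjusted p = 0.165, or 0.00244 with median-ratio rescaling). Each E113 mutant was thus below the E71 and E76 mutants with the same amino acid, E113Q against E76Q depending on the scaling. The smaller differences lay close to the threshold. The difference at E76 was 0.38 to 0.46 when each of its 6 libraries was left out and then did not pass (adjusted p = 0.0671 to 0.118), and that at E71 did not pass without E71K replicate 2 (adjusted p = 0.0502), E71Q replicate 2 (0.0566) or E71Q replicate 3 (0.075), nor in a fit of those groups alone (0.277). E76K minus E71K did not pass without any 1 E76K library, E71K replicate 1 or E71K replicate 2 (adjusted p = 0.0502 to 0.194), and E76Q minus E71Q did not pass without E71Q replicate 2, E71Q replicate 3 or E76Q replicate 1 (0.0585 to 0.0837). All these pairs share their mutant libraries with the contrast that picked the gene, so none is independent of the choice.

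Of the other SLC1 transporters, the neutral amino acid carriers moved in mixed directions. Slc1a4 fell by 0.95 in E113K and 0.48 in E113Q on the log2 scale. Slc1a5, a glutamine carrier, rose by 0.45 in E71Q and 0.46 in E113K and fell by 0.47, 0.68 and 0.39 in E71K, E76K and E76Q. Slc1a2, the other main glutamate transporter of astrocytes, was below 1 TPM in every library.

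Asic1 (chromosome 15, 99670197 to 99701130, plus strand) encodes a sodium channel opened by extracellular protons, and was the 1 gene of the 9 that was lower in every mutant. It had 9.22, 8.19 and 9.88 TPM in E71K, 12.9, 12.9 and 11.8 in E71Q, 15.0, 14.4 and 14.5 in E76K and 12.6, 12.2 and 11.1 in E76Q. It had 23.6, 22.9 and 24.3 TPM in E113K and 18.6, 21.1 and 16.9 in E113Q, against 36.8, 38.4 and 34.1 in WT. All 18 mutant libraries lay below every WT library, as was the case for 5.31% of tested genes, and the E113 mutants lay nearest to WT. The differences from WT were −1.89, −1.46, −1.26, −1.53, −0.60 and −0.91 in E71K, E71Q, E76K, E76Q, E113K and E113Q.

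Replicates of Asic1 were tight, and most mutants differed from each other. E113K was 1.29 ± 0.094 above E71K (limma adjusted p = 7.1e-09) and 0.65 above E76K (adjusted p = 4.62e-05), and E76K was 0.64 above E71K (adjusted p = 5.72e-05). E113Q was 0.55 above E71Q (adjusted p = 0.000328) and 0.62 above E76Q (adjusted p = 9.81e-05), while E76Q minus E71Q was −0.07 (adjusted p = 0.685). Lysine minus glutamine was −0.43 at E71, 0.27 at E76 and 0.31 at E113 (adjusted p = 0.00356, 0.0337 and 0.02). With median-ratio rescaling the difference at E76 was 0.13 (adjusted p = 0.345) and that at E113 had an adjusted p of 0.0678. At E76 it also did not pass without any 1 E76K library, E76Q replicate 2 or E76Q replicate 3 (adjusted p = 0.0593 to 0.133), and at E113 without E113K replicate 1 or 3 or E113Q replicate 1 or 3 (0.0526 to 0.0791). In fits of only the groups compared, E71K minus E71Q, E76K minus E71K, E113K minus E113Q and E113Q minus E71Q had adjusted p of 0.239, 0.0599, 0.0513 and 0.0509. Asic1 and Slc1a3 correlated at −0.86 over the 21 libraries, which describes 7 group levels rather than 21 independent points.

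Asic2, Asic3, Asic4 and Asic5 reached at most 0.048, 0.397, 0.167 and 0 TPM. Scnn1a, the alpha subunit of the related epithelial sodium channel, rose by 0.95 in E76K, 0.75 in E76Q, 0.77 in E113K and 0.72 in E113Q.

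Hvcn1 (chromosome 5, 122206805 to 122242297, plus strand) encodes a voltage-gated proton channel, best known from phagocytes and microglia. It had 34.7, 43.4 and 34.5 TPM in E113K. In E71Q it had 0.146, 9.07 and 0.383 TPM, so that 1 library stood far above its mates. The other mutant libraries held 0.0724 to 0.869 TPM, against 0.371, 0.287 and 0.177 TPM in WT. E113K was thus 4.91 above WT on the log2 scale, and the E71Q difference of 0.98 came from replicate 2 alone. Hvcn1 passed the filter only through E113K, since the mean of the other 18 libraries was 0.8 TPM. Blood cell markers did not accompany it: 9 of 10, including Ptprc, Itgam, Adgre1 and Csf1r, were below 1 TPM in every library, and their sum was 0.488 to 1.45 TPM in E113K and 1.15 to 1.28 TPM in WT.

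Celf2 (chromosome 2, 6539694 to 7396341, minus strand) encodes an RNA-binding protein that controls splicing and mRNA stability in brain, muscle and T cells. It had 131.3, 131.0 and 210.7 TPM in E71K, 135.5, 163.8 and 184.7 in E71Q and 53.7, 83.6 and 106.8 in E76K. It had 64.6, 79.3 and 98.2 TPM in E76Q, 117.8, 126.3 and 152.7 in E113K and 65.0, 75.5 and 214.8 in E113Q, against 4.04, 7.01 and 9.03 in WT. Every mutant library stood above every WT library, and neighbouring mutants overlapped. The differences from WT were 4.39, 4.44, 3.42, 3.44, 4.16 and 3.80 in E71K, E71Q, E76K, E76Q, E113K and E113Q.

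Celf2 differed between the libraries of a group, and replicate 3 was highest in each of the 7 groups. Among the libraries that lay apart it was above both mates in E71K replicate 3, E76K replicate 3 and E113Q replicate 3 and below both in E71Q replicate 1. With all libraries no mutant pair passed: E76K minus E71K was −0.96 ± 0.37 (limma adjusted p = 0.0583), E76Q minus E71Q had an adjusted p of 0.0672, E113Q minus E71Q was −0.65 (adjusted p = 0.224), E113K minus E76K was 0.74 (adjusted p = 0.135) and E113K minus E113Q was 0.36 (adjusted p = 0.497). Without the 4 libraries these were −0.96 (adjusted p = 0.012), −1.12 (0.00358), −1.30 (0.0019), 0.96 (0.00652) and 0.90 (0.0112). Leaving out E113Q replicate 3 alone also brought the adjusted p of all 5 pairs below 0.05, to 0.0126, 0.0137, 0.00724, 0.0442 and 0.0371, so these calls change with that library. With median-ratio rescaling E76K minus E71K (adjusted p = 0.0229) and E76Q minus E71Q (0.0455) passed with all libraries. Lysine minus glutamine in Celf2 was −0.06 ± 0.37 at E71 and −0.02 ± 0.37 at E76, and neither passed (adjusted p = 0.939 and 0.983).

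Celf1, a ubiquitous relative of Celf2, fell in all 6 mutants, by 0.69, 0.94, 0.33, 0.68, 0.31 and 0.54 in E71K, E71Q, E76K, E76Q, E113K and E113Q, where WT had 56.3 ± 1.21 TPM. The weakest of these, in E76K, had a limma adjusted p of 0.0418. Celf5 fell by 1.58 in E113K, 0.97 in E113Q and 0.53 in E71Q. Celf3, Celf4 and Celf6 reached at most 0.184, 0.968 and 0.247 TPM.

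Brinp3 (chromosome 1, 146495629 to 146902472, plus strand) belongs to a family of neural proteins induced by bone morphogenetic protein and retinoic acid. It had 44.1, 45.0 and 64.2 TPM in E76K. The other mutant libraries held 0 to 0.76 TPM, against 0.361, 0.375 and 0.394 TPM in WT. Brinp3 was thus high in the 3 E76K libraries alone, 5.22 above WT on the log2 scale, and its mean over the other 18 libraries was 0.242 TPM, below the filter. E76K averaged 51.1 ± 11.4 TPM, while E76Q minus WT was −0.37 on the log2 scale. Brinp1 and Brinp2 reached at most 0.622 and 0.101 TPM.

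Scrn1 (chromosome 6, 54474794 to 54566517, minus strand) encodes secernin 1, a cytosolic protein abundant in brain. It had 41.8, 38.8 and 35.9 TPM in E113K and 21.7, 19.9 and 20.8 in E113Q. All other mutant libraries held 0 to 1.18 TPM, against 0.162, 0.22 and 0.0809 TPM in WT. Both substitutions of E113 thus had it far above the other groups. E113K exceeded E113Q by 0.87 ± 0.22 on the log2 scale (limma adjusted p = 0.00666), with groups that did not overlap. With a pseudocount of 0.1 in place of 1 the difference was 0.90 (adjusted p = 0.303). Scrn1 passed the filter through the E113 groups, since every other group mean was at most 0.706 TPM. These p-values are therefore not independent of how the gene was picked. The relatives Scrn2 and Scrn3 passed the test in E76Q alone, where they rose by 0.67 and 0.68.

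Sorbs2 (chromosome 8, 45507788 to 45827906, plus strand) encodes a cytoskeletal adaptor found at synapses, heart muscle discs and stress fibres. It had 50.6, 41.4 and 79.1 TPM in E71K, 107.4, 167.9 and 185.0 in E71Q and 2.10, 1.60 and 3.31 in E76K. It had 130.6, 143.5 and 153.3 TPM in E76Q, 13.2, 14.1 and 15.3 in E113K and 24.6, 26.2 and 32.7 in E113Q, against 7.23, 7.17 and 8.12 in WT. E71Q and E76Q overlapped at the top, followed without overlap by E71K, E113Q, E113K, WT and E76K. At E76 the lysine and the glutamine mutant thus lay on opposite sides of WT: its difference from WT was −1.38 in E76K and 4.07 in E76Q.

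At E71 and E113, where all 4 mutants were above WT, glutamine went with more Sorbs2 than lysine. E71K minus E71Q was −1.43 ± 0.23 (limma adjusted p = 0.000263, or 0.0841 in a fit of those groups alone), and E113K minus E113Q was −0.92 (adjusted p = 0.00609). E113K minus E71K was −1.88 (adjusted p = 3.77e-06), E113Q minus E71Q was −2.39 (adjusted p = 3.83e-07) and E113Q minus E76Q was −2.32 (adjusted p = 5.14e-07). E76Q minus E71Q was −0.07 (adjusted p = 0.875), or −0.31 (adjusted p = 0.045) without the libraries that lay apart. Its relative Sorbs3 rose by 0.45 in E113Q and fell by 0.43 and 0.30 in E76K and E76Q.

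**Figure D3:**
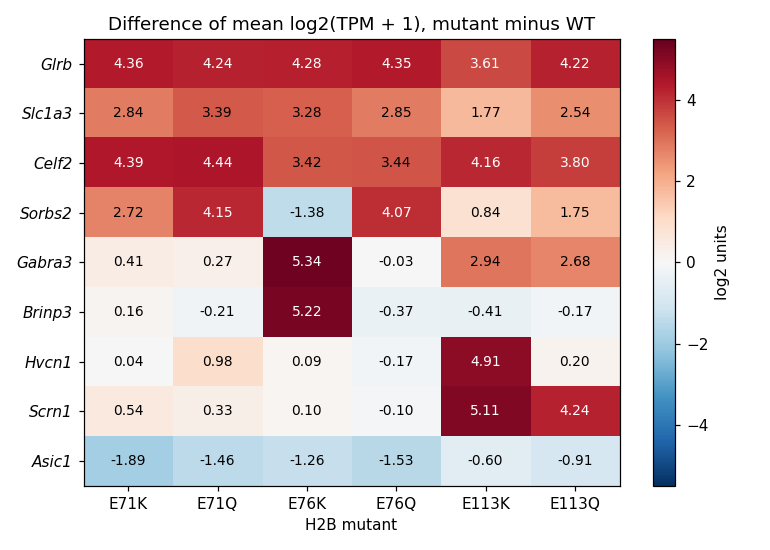
Difference of mean log2(TPM + 1) from WT for the 9 genes (down) in the 6 H2B mutants (across), red above WT and blue below. Glrb, Slc1a3 and Celf2 are above WT in each mutant by 1.77 to 4.44, Asic1 is below in each, and Gabra3, Brinp3, Hvcn1 and Scrn1 are strongly raised in E76K, E113K or E113Q.

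On the log2(TPM + 1) scale, E71K, E71Q and E76Q shared 1 combination: Glrb, Slc1a3, Celf2 and Sorbs2 at least 1 unit above WT and Asic1 at least 1 unit below. At least 2-fold above WT on that scale were 4 of the 9 genes in E71K, 4 in E71Q, 5 in E76K, 4 in E76Q, 6 in E113K and 6 in E113Q, where 5.68%, 8.38%, 7.87%, 9.26%, 10.8% and 6.97% of tested genes were. At least 2-fold below WT on the same scale were 1 in E71K, 1 in E71Q, 2 in E76K, 1 in E76Q, 0 in E113K and 0 in E113Q, where 6.17%, 9.06%, 4.4%, 8.17%, 9.25% and 5.02% of tested genes were. Genes near 0 TPM can pass 2-fold by their mean TPM and not on this scale, such as Brinp3 in E113K (0.035 TPM, against 0.377 TPM in WT) or Scrn1 in E71K (0.706 TPM, against 0.154 TPM in WT). The genes were picked on these differences, so nothing is read from the counts. In the order of all 12192 tested genes by difference from WT, Gabra3 was number 3 and Brinp3 number 6 from the top in E76K, Scrn1 number 4 and Hvcn1 number 8 in E113K, and Celf2 number 8 and Glrb number 9 in E71K.

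Lysine and glutamine were then compared across all 9 genes. Adjusted p was below 0.05 for 3 of 9 genes at E71, 5 at E76 and 5 at E113, where 25.1%, 31.9% and 28% of tested genes passed. Between residues the counts were 5 for E76K against E71K, 7 for E113K against E71K and 7 for E113K against E76K, where 29.3%, 47.3% and 32.8% passed. They were 1 for E76Q against E71Q, 5 for E113Q against E71Q and 4 for E113Q against E76Q, where 19.7%, 23.4% and 22.1% passed. The lysine minus glutamine difference itself differed between residues for 5 of 9 genes in E76 minus E71, 2 in E113 minus E71 and 5 in E113 minus E76, where 21.7%, 32.7% and 29.5% of tested genes passed. These counts include genes that are raised in 1 of the mutants alone (Brinp3, Hvcn1, and Gabra3, Scrn1 or Sorbs2 in some pairs), whose difference restates why they were picked. Without the libraries that lay apart 5 of 9 passed at E71 and 5 for E76Q against E71Q. Those added at E71 were Hvcn1 and Scrn1, and those added for E76Q against E71Q were Gabra3, Celf2, Hvcn1 and Sorbs2. Of these, Hvcn1 rested on E71Q replicate 2, at 9.07 TPM. Scrn1 reached at most 1.18 TPM in the E71 groups, and Gabra3 at most 0.723 TPM in E71Q, so little is read from these added calls.

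**Figure D4:**
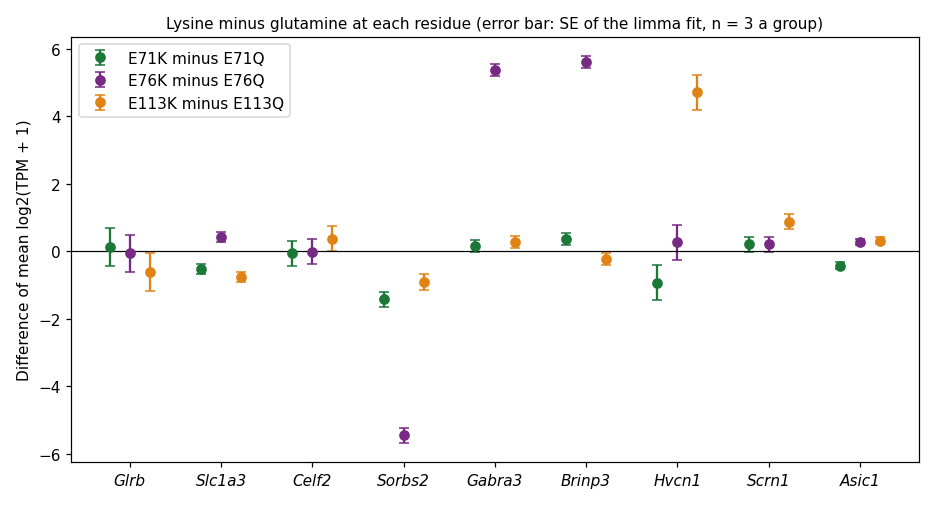
Difference of mean log2(TPM + 1) between the lysine and the glutamine mutant at E71 (green), E76 (purple) and E113 (orange) for the 9 genes, with bars of 1 SE of the model. Slc1a3 lies below 0 at E71 and E113 and above 0 at E76, and Sorbs2 lies at −5.46 at E76.

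Relatives of the 9 genes were tested as a background list, 24 genes of their families and of the REST complex that passed the filter. Against WT, 4 passed in E71K (2 rose, 2 fell), 9 in E71Q (5 rose, 4 fell), 7 in E76K (3 rose, 4 fell), 10 in E76Q (6 rose, 4 fell), 11 in E113K (8 rose, 3 fell) and 8 in E113Q (5 rose, 3 fell), where 26.7%, 44.2%, 33.2%, 44.3%, 51% and 30.6% of all tested genes passed. The median difference of the 24 genes was −0.07, 0.04, 0.15, 0.07, 0.29 and 0.17, beside 0, 0, 0.16, 0.02, 0.13 and 0.06 over all tested genes. Rest, the repressor itself, had means of 12.8, 11.3, 13.1, 15.2, 15.0 and 10.9 TPM in E71K, E71Q, E76K, E76Q, E113K and E113Q, against 10.3 ± 1.7 TPM in WT, and did not pass with TPM as deposited. In E76Q its difference of 0.51 had an adjusted p of 0.0672, or 0.0324 with median-ratio rescaling, and without the libraries that lay apart E76Q (0.0056) and E113K (0.00602) passed. Rcor2, a CoREST protein, rose by 1.49 in E71K, 1.68 in E71Q, 1.59 in E76Q and 1.08 in E113K, and Kdm1a, the demethylase of the complex, rose by 0.68 in E113K. With median-ratio rescaling the number that passed was 9 in E71K, 17 in E71Q and 15 in E113Q.

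Across the 21 libraries the 9 genes fell into a few patterns, given as correlations of log2(TPM + 1) that mostly reflect the 7 group levels. Glrb correlated at 0.89 with Celf2 and at 0.89 with Slc1a3, and Celf2 with Slc1a3 at 0.83. Gabra3 correlated at 0.76 with Brinp3, and both ran against Sorbs2 (−0.7 and −0.66), while Hvcn1 and Scrn1 correlated at 0.67. The 3 tested genes most like each were Dapk3 (0.911), Dis3l2 (0.907) and Isl2 (0.895) for Glrb, Antxr1 (0.934), Dis3l2 (0.934) and Cachd1 (0.931) for Celf2, and Trim68 (0.947), Fam160a1 (0.945) and Nmnat2 (0.939) for Slc1a3. They were Ptchd4 (0.965), Arhgap44 (0.961) and Tbc1d9 (0.961) for Gabra3, Tecrl (0.996), Luzp2 (0.993) and Asb2 (0.991) for Brinp3, and Tril (0.967), Pcolce2 (0.964) and Pag1 (0.948) for Sorbs2. For Scrn1 they were Cd302 (0.972), Npy1r (0.969) and Wnk4 (0.956), for Hvcn1 Dkk2 (0.926), Gmfb (0.924) and Scube3 (0.902), and for Asic1 Tgm2 (0.948), Il33 (0.943) and Adgre5 (0.928). Dis3l2 was thus shared by Glrb and Celf2, and Asic1, the WT-high gene, shared none with the others.

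Slc1a3 and Asic1 both lie on chromosome 15, and each of the others is alone on its chromosome. Their annotated spans were 30.9 kb (Asic1), 35.5 kb (Hvcn1), 70.1 kb (Glrb), 76.7 kb (Slc1a3), 91.7 kb (Scrn1), 224 kb (Gabra3), 320 kb (Sorbs2), 407 kb (Brinp3) and 857 kb (Celf2), beside a median of 21.5 kb over 12181 tested genes with a position. All 9 were therefore longer than the median gene. Nearest tested neighbours had patterns that matched their gene in part or not at all. Rgs21, 1930 kb below Brinp3, had 11.2 TPM in E76K and also 4.63 TPM in E113K, where Brinp3 was not raised, against 0.0447 TPM in WT. Chn2, 173 kb from Scrn1, was above WT by 2.37, 3.02, 3.17, 0.70, 3.47 and 3.21 on the log2 scale in E71K, E71Q, E76K, E76Q, E113K and E113Q, a pattern wider than the 2 mutants with Scrn1. Gabre, 158 kb from Gabra3, had means of 2.34 TPM in E76K and 2.24 TPM in E113K beside the 4.32 TPM in E113Q given above, against 1.18 TPM in WT. With all libraries it did not pass in E76K (adjusted p = 0.166) or E113K (0.143). Without the libraries that lay apart it rose by 0.82 in E76K (limma adjusted p = 0.00103) and 0.58 in E113K (0.00306). It then also fell by 0.89 in E71K (0.000581). Smarcd1, 1.16 kb from Asic1, differed from WT by 0.10 to 0.43, opposite in sign to Asic1.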

How the data were processed

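RNA of 21 libraries in 7 groups was measured as TPM. The TPM values were deposited by the authors, per the file headers, in a table by library and a table by group, and the group table equalled the means of the libraries and was not used further. Salmon, featureCounts 1.4.4, DESeq and build mm10 are named in the submitters' processing notes, which do not give their roles. TPM keeps no read total, so depth is unknown and no counting interval is given. The 9 genes and all gene lists were chosen with earlier results of these data known.

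From these values log2(TPM + 1) was computed. Testing was limited to the 12192 of 24091 genes whose average reached 1 TPM, all 9 genes among them (3934 genes were at 0 in every library). A model of 7 groups was fitted with limma 3.58.1 in R 4.3.3 and its intensity trend, on 14 residual degrees of freedom and 3.19 prior ones. P-values are two-sided and adjusted by Benjamini-Hochberg within each comparison over all tested genes, with a threshold of 0.05, and "adjusted p" means that value throughout. Mutants with the same residue or the same new amino acid were compared in 9 pairs, each mutant was compared with WT, and 3 interactions were fitted. A p between mutants is printed where both differ from WT in the same direction, and otherwise the values alone. TPM is given with the SD of 3 libraries, and log2 differences with the model's SE. The procedure was tested on simulated data.

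Named were the 9 genes, the 3 tested genes most correlated with each, expressed members of family lists, the most abundant markers of each list and those at 0, and the nearest tested neighbours. Libraries were set apart where a group spanned more than 10 on the first principal component of differences within groups. Positions and promoters are RefSeq, GRCm38.p6, matched by Entrez identifier and symbol, and 8 of the 9 genes had a promoter window. Hvcn1 had none. Some genes of the family lists are not reported here. Alternatives were a pseudocount of 0.1 or 5, a filter at 5 TPM or none, quantile normalization, median-ratio rescaling (8056 genes, each above 5 TPM throughout), leaving out Mir6236, no trend, the replicate block, fits of the groups compared alone, leaving out the libraries set apart, and leaving out each library. Same-numbered libraries did not deviate together (mean correlation of deviations 0.03 over 63 pairs, against −0.01 over 126 pairs with different numbers), so numbers were not used as pairs.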

Additional observations from a re-analysis of the deposited data

Results flagged for a closer look

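The lysine minus glutamine difference was compared between residues on the log2 scale, with the test of each interaction given for Slc1a3 and Asic1, which differed from WT in the same direction in all 6 mutants. For Slc1a3 the difference at E76 exceeded that at E71 by 0.97 ± 0.21 (SE; limma adjusted p = 0.00297), and E113 minus E76 was −1.19 ± 0.21 (adjusted p = 0.000489). For the same gene E113 minus E71 was −0.22 ± 0.21 (adjusted p = 0.456), or −0.30 (adjusted p = 0.0442) with median-ratio rescaling. Slc1a3 was above WT in all 6 mutants, so these values compare raised levels with each other. For Asic1, below WT in all 6 mutants, E76 minus E71 was 0.70 ± 0.13 (adjusted p = 0.000862) and E113 minus E71 was 0.74 ± 0.13 (adjusted p = 0.000493).

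In 4 genes the interaction restates the mutant or mutants in which the gene was picked as raised or lowered, and is given with no p. For Gabra3 E76 minus E71 was 5.23 and E113 minus E76 was −5.11, and for Brinp3 the values were 5.23 and −5.84, both set by E76K. For Hvcn1 E113 minus E71 was 5.65 and E113 minus E76 was 4.45, both set by E113K. For Sorbs2 E76 minus E71 was −4.03 and E113 minus E76 was 4.54. Lysine minus glutamine at E76 was −5.46 in this gene, with E76K at −1.38 and E76Q at 4.07 relative to WT. Hvcn1 also had E71Q replicate 2 at 9.07 TPM beside 0.146 and 0.383 TPM in its mates.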

How the results depend on the processing

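TPM gives no depth, groups have 3 libraries, and differences that did not pass were given no direction. For the 9 genes, no difference between mutants that passed changed sign under any alternative. The sign was not checked in this way for the other genes. The number of the 9 genes that passed at E71 was 0 in a fit of those groups alone and 5 without the libraries that lay apart. For E76K against E71K it was 3 in a fit of those groups alone. For E76Q against E71Q it was 2 with median-ratio rescaling, quantile normalization, without Mir6236 and with the replicate block, and 5 without the libraries that lay apart. For the interaction of E113 minus E71 it was 4 with rescaling and without the libraries that lay apart.

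Of the 24 related genes, E71K had 9 with no filter, rescaling, without Mir6236 or without the libraries that lay apart, and 11 with quantile normalization. E71Q had 15 with no filter, 17 with rescaling or quantile normalization and 14 without Mir6236. E76K had 12 with no filter, E113K 17 in a fit of those groups alone, and E113Q 5 at a mean of 5 TPM and 15 with rescaling or quantile normalization.

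Leaving out each library gave 2 to 4 of the 9 genes at E71, 3 to 5 at E76 and 4 to 5 at E113, 4 to 6 for E76K against E71K, 6 to 7 for E113K against E71K, 7 to 8 for E113K against E76K, 0 to 2 for E76Q against E71Q, 5 to 6 for E113Q against E71Q and 4 for E113Q against E76Q. At E76 the count was 3 without any E76K library or E76Q replicate 2 or 3. For E76Q against E71Q it was 0 without E71Q replicate 2 or 3 or E76Q replicate 1, and 2 without E71Q replicate 1 or E113Q replicate 3. The related genes ranged over 3 to 8 in E71K, 4 to 13 in E71Q, 3 to 8 in E76K, 6 to 11 in E76Q, 7 to 12 in E113K and 4 to 9 in E113Q. Those counts moved by over 1.5 times without E71K replicate 3 (8), E71Q replicate 2 (4), E76K replicate 1 or 2 (4 each) or WT replicate 2 (3) for E76K, E76Q replicate 1 (6), E113K replicate 3, WT replicate 1 or WT replicate 3 (7 each) for E113K, and WT replicate 3 (4) for E113Q. With the replicate block 4 Celf2 pairs passed that did not pass without it, E76K minus E71K (adjusted p = 0.00313), E76Q minus E71Q (0.00333), E113K minus E76K (0.0148) and E113Q minus E71Q (0.0388). The cause of these moves was not tested.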
